A study of Mus musculus with 18 samples.

Results

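The intervals described here carried H3K36me2 peaks in Mir155-deficient (KO) B cells and in no library of Mir155-sufficient (WT) B cells. H3K36me2 is histone H3 dimethylated at lysine 36. Broad peaks of all 6 H3K36me2 libraries were merged wherever they overlapped by at least 1 bp, and an interval was kept when at least 2 of the 3 KO lists and 0 of the 3 WT lists held a peak in it. The rule kept 1844 of 179626 merged intervals, or 1.03%. These KO-only intervals were selected on the H3K36me2 peak calls of both genotypes, so their H3K36me2 values are given as a description and without a test. The mirrored choice, at least 2 WT lists and 0 KO lists, held 14296 intervals, or 7.96%. These numbers depend on the lengths of the lists, and with the 37447 strongest peaks of each list they were 2780 and 4709.

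The B cells came from spleens of C57BL/6 mice with or without a working Mir155 gene, were purified by negative selection, and were cultured for 2 days at 1% O2. The medium held anti-CD40 at 1 µg/ml, an F(ab')2 fragment of anti-IgM at 5 µg/ml and IL-4 at 4 ng/ml, a mixture that stimulates B cells in place of T cell help and antigen. Cells of both genotypes had the same culture and were crosslinked with both EGS and formaldehyde before chromatin immunoprecipitation for H3K36me2 or KDM2A. Each genotype had 3 libraries per antibody, of which replicate 1 came from a male and replicates 2 and 3 from females, and 3 input libraries that were not used here. The male replicate thus came from other mice than the female ones. Whether replicates 2 and 3 came from separate mice or pools was not stated in the labels, so the spread between these may be technical. A peak list holds no values for B cell markers, so the cell type could not be checked against it.

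H3K36me2 is written by the NSD methyltransferases and by ASH1L, and it typically lies in broad domains over genes and between them. KDM2A is a demethylase that removes this mark and reaches chromatin through a CXXC zinc finger that binds unmethylated CpG. MiR-155 is a microRNA induced in activated B cells, and Kdm2a is among its predicted targets. The paper also reports more KDM2A protein in KO than in WT B cells under hypoxia. It reports more in light zone germinal centre B cells of mice with a mutated miR-155 site in Kdm2a. The deposited libraries allow the enzyme and its substrate to be placed on the genome with and without Mir155.

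The bases at the centre of KO-only intervals are shown first, because the CpG is the dinucleotide that KDM2A reads. Each line gives the 150 bases around the centre of a KO-only interval in GRCm38, with every CpG in capitals. The centre is that of the merged interval, so it can lie under the peak of a single KO list. The first group lists the 6 intervals called in all 3 KO lists that had the highest mean fold, named by the gene with the nearest transcription start site (TSS).
Mllt3, chr4:87823835-87823984, plus strand: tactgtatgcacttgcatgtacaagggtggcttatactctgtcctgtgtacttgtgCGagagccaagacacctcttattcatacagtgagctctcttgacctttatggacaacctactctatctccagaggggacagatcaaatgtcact
1110002O04Rik, chr1:35859258-35859407, plus strand: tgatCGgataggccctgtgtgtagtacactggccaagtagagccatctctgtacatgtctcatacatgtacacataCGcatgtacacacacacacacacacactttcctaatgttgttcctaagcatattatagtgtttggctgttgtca
Gm25846, chr3:75726822-75726971, plus strand: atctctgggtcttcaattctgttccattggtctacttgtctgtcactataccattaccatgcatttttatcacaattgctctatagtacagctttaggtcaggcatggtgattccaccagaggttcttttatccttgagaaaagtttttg
Ccdc150, chr1:54377760-54377909, plus strand: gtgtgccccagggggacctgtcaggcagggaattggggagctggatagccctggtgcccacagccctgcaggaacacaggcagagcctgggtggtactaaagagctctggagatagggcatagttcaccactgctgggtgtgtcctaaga
Casp1, chr9:5297333-5297482, plus strand: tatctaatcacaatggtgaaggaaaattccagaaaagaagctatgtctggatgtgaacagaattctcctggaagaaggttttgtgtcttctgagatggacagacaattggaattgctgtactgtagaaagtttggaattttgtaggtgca
Mir3961, chr13:82551808-82551957, plus strand: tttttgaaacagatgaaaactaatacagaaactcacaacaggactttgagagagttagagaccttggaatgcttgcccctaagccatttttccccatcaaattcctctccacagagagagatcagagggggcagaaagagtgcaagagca
The next group lists further intervals at a TSS that were called in all 3 KO lists.
Gm2808, chr17:6528770-6528919, plus strand: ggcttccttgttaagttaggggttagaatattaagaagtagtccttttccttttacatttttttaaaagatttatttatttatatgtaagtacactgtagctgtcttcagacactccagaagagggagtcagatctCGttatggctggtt
Igkv4-58, chr6:69500899-69501048, plus strand: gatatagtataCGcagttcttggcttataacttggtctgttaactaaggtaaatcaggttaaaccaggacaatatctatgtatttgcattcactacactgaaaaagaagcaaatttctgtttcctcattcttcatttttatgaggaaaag
Gm33543, chr10:95844584-95844733, plus strand: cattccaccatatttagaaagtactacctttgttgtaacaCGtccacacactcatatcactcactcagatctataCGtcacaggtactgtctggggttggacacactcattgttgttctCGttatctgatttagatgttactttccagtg
9330111N05Rik, chr13:80965674-80965823, plus strand: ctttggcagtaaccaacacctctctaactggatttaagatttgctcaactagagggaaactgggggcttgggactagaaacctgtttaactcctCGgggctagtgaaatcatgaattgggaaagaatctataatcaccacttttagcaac
The last group lists 4 of the 5 KO-only intervals that held KDM2A peaks in the most KDM2A lists. The sequence of the remaining one, near Slc26a2, is not shown here.
Asb8, chr15:98146268-98146417, plus strand: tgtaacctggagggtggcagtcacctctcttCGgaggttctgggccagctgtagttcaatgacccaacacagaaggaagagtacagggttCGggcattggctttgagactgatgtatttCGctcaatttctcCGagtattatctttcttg
Spop, chr11:95413175-95413324, plus strand: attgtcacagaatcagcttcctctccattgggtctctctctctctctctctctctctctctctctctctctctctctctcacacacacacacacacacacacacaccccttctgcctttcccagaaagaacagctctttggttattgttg
4930558K02Rik, chr1:161968529-161968678, plus strand: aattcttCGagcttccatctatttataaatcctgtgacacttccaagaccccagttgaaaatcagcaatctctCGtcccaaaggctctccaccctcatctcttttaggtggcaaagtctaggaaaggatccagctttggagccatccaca
Jsrp1, chr10:80813235-80813384, plus strand: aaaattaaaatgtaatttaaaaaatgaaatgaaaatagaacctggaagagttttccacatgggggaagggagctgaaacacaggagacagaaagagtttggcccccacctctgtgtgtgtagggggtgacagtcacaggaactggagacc
The letters CG, which read the same on both strands, occurred 0 to 4 times in these stretches and were absent from 6 of the 14. Over the KO-only intervals, 59.9% had a CG in their central 150 bases, beside 66.8% of all merged intervals, 65.4% of intervals bound in both genotypes and 67.8% of WT-only intervals. At least 3 CG were found in 11.4% of KO-only intervals and in 18.4% of all intervals. The centre of the Asb8 interval had 4 CG. Gm25846 lay entirely in soft-masked repeats, and the Spop centre held a long run of alternating ct and ca.

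The 6 H3K36me2 lists were not alike. Replicates 1, 2 and 3 had 85387, 89768 and 94136 peaks among the WT libraries. In the same order the KO libraries had 106720, 37447 and 45180, so that KO replicate 1 had the longest list of all and the other KO lists the shortest. The highest −log10 q in KO replicate 1 was 52.3, whereas in the other lists it lay between 230 and 789. All KDM2A lists were shorter, with 23372 to 29105 peaks for WT libraries and 15387 to 21705 for KO libraries. The lists carry no depth, so their lengths could not be related to sequencing.

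KO replicate 1 contributed to most KO-only intervals. Of the 1844, 854 (46.3%) had peaks in replicates 1 and 3, 636 (34.5%) in replicates 1 and 2, 266 (14.4%) in replicates 2 and 3, and 88 (4.77%) in all 3. Peaks of replicate 1 thus lay in 1578 of the intervals, peaks of replicate 3 in 1208 and peaks of replicate 2 in 990. When KO replicate 1 was left out, 382 intervals had a peak in both other KO lists and in no WT list. Without KO replicate 2 the number was 980 and without KO replicate 3 it was 738, since both remaining KO lists then had to hold a peak.

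The peaks behind KO-only intervals were weak in every KO list. The fold is the authors' enrichment of a peak over its local control. Its median at KO-only peaks was 2.69 in replicate 1, 2.55 in replicate 2 and 2.65 in replicate 3, and the same lists had medians of 2.73, 2.57 and 2.68 over all their peaks. The median −log10 q was 1.54, 1.47 and 1.33, against 1.61, 1.51 and 1.38 for the whole lists. In replicate 3, 45.8% of KO-only peaks had a q over 0.05, the share in replicate 2 was 22.7% and that in replicate 1 was 18.4%. A −log10 q of at least 2 was reached by 13.1%, 9.49% and 4.37% of KO-only peaks in replicates 1, 2 and 3. The strongest KO-only peak of each list had a −log10 q of 4.02, 3.89 and 3.24. In each KO list the KO-only peaks thus had a slightly lower median than the list as a whole.

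**Figure D1:**
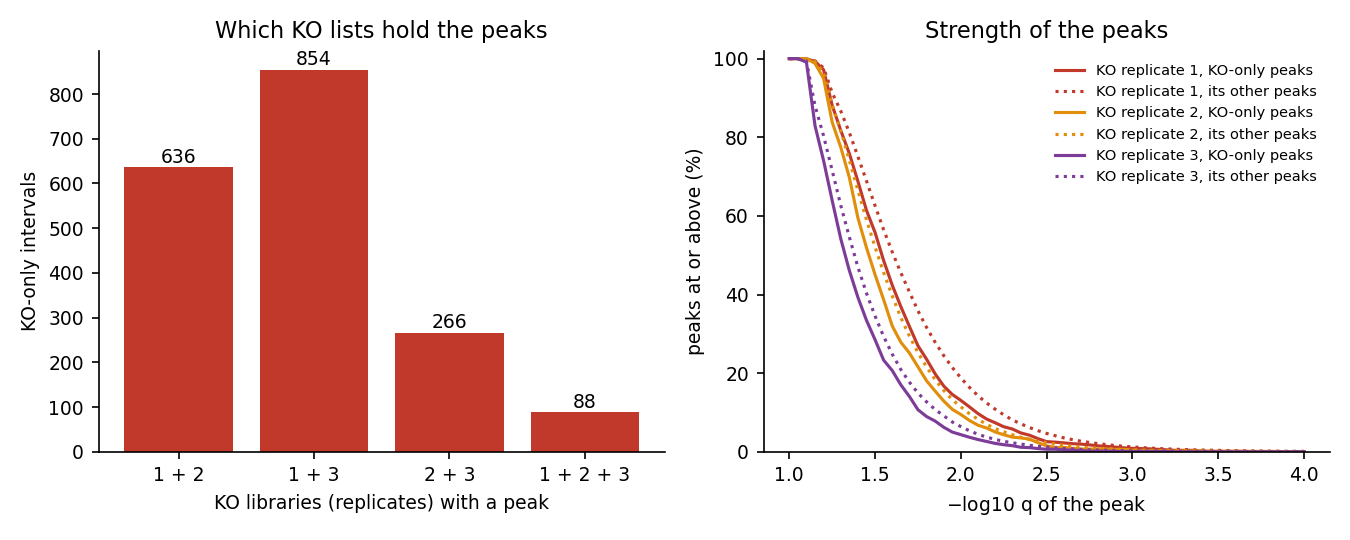
Left, number of KO-only H3K36me2 intervals (vertical axis) by the KO libraries that held a peak (horizontal axis); right, percent of peaks (vertical axis) at or above a given −log10 q (horizontal axis) for KO-only peaks (solid) and all other peaks (dotted) of each KO list. Combinations with replicate 1 made up 1578 of 1844 intervals, and from a −log10 q of 1.15 to 2.35 each solid line ran below the dotted line of its own list.

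The peaks of different KO lists met over a short stretch. Nearly every KO-only interval, 1833 of 1844, was built of a single peak from each contributing list. A median of 269 bp, or 30.03% of the interval, lay under peaks of 2 or more KO lists (quartiles 171 and 439 bp). In 269 intervals (14.6%) the shared stretch was under 100 bp. KO-only intervals had a median width of 996 bp, with quartiles of 718 and 1346 bp and a range from 232 to 4184 bp. Together they covered 2007161 bp. Intervals bound in both genotypes, meaning at least 2 libraries of each, were much wider, with a median of 4817 bp, and WT-only intervals had a median of 1396 bp. The 88 intervals called in all 3 KO lists had a median of 1654 bp.

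WT peaks were absent from the KO-only intervals by choice, but most lay close by. The median distance to the nearest H3K36me2 peak of any WT library was 639 bp (quartiles 237 and 1428 bp). A WT peak lay within 1 kb of 1187 intervals (64.4%), within 5 kb of 1739 (94.3%) and within 10 kb of 1799 (97.6%). Only 2 KO-only intervals were over 100 kb from a WT peak, as 1842 lay within that distance. Intervals with a peak in a single KO list and in no WT list were farther away, with a median of 1097 bp and 47.6% within 1 kb. Among the 88 intervals of all 3 KO lists the median was 510 bp and the largest distance 5171 bp.

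**Figure D2:**
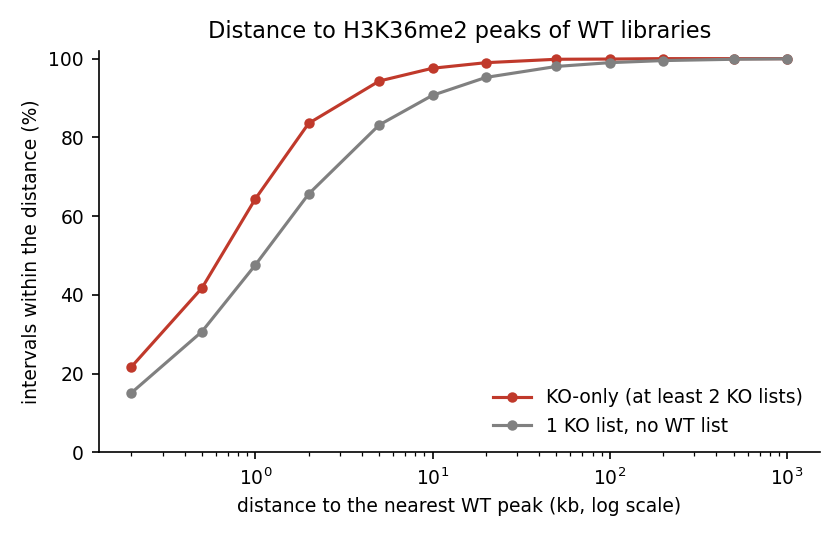
Percent of intervals (vertical axis) that lay within a given distance in kb (horizontal axis, log scale) of the nearest H3K36me2 peak of any WT library, for KO-only intervals (red) and intervals with a peak in 1 KO list and no WT list (grey). At 1 kb the red line stood at 64.4% and the grey line at 47.6%.

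The choice was also repeated with libraries left out, which gave other sets of intervals than the full rule. One KO and one WT library were left out in turn, intervals with a peak in both remaining KO lists and in neither remaining WT list were chosen, and the left-out lists were then searched. Across the 9 choices, 613 to 1851 intervals were chosen. The left-out KO library had a peak in 16.0% to 39.4% of them, and the left-out WT library in 35.4% to 52.9%. In 9 of 9 choices the left-out WT library held a peak in more of these intervals than the left-out KO library. The lists differ in length. Of all merged intervals of the libraries kept, the left-out KO library had a peak in 14.9% to 38.1% and the left-out WT library in 33.5% to 44.2%. Each share was therefore also divided by the share of all intervals with a peak in the same left-out library. This ratio was 0.97 to 1.22 for the left-out KO library and 1.02 to 1.24 for the left-out WT library, and it was higher for WT in 7 of 9 choices. Intervals chosen in KO libraries were thus found in the left-out KO library at 0.97 to 1.22 times the rate of any interval. The chosen intervals were not matched to all intervals in width, so these ratios give no verdict on the KO-only intervals of the full rule. For WT-only intervals chosen in the same manner, the ratio was 1.28 to 1.47 in the left-out WT library and, in the left-out KO library, 1.47 to 1.49 for KO replicate 1 and 1.04 to 1.08 for KO replicates 2 and 3. The 9 choices share libraries, so no test was made on them.

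**Figure D3:**
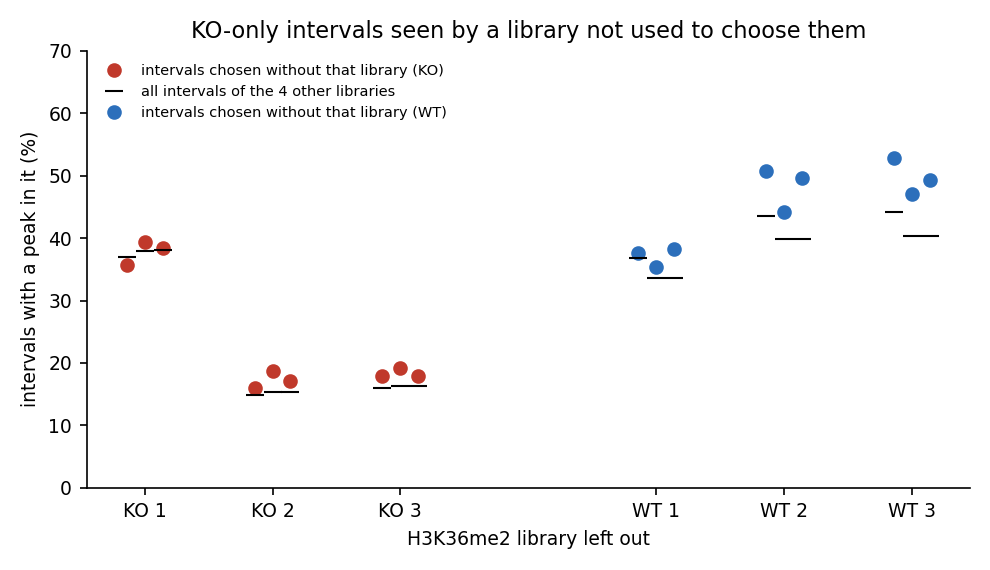
Percent of intervals with a peak (vertical axis) in the H3K36me2 library left out (horizontal axis), for intervals chosen as KO-only from the 4 other libraries (circles, 3 choices for each library) and for all merged intervals of those 4 libraries (dashes). Values for left-out KO libraries lay between 16.0% and 39.4%, and those for left-out WT libraries between 35.4% and 52.9%.

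Intervals just outside the rule had peaks of like strength but other widths. A peak in 1 KO list and in no WT list was found at 40284 intervals, and peaks in at least 2 KO lists and 1 WT list at 2997. At the latter, the single WT peak came from WT replicate 1 in 750 intervals, WT replicate 2 in 1064 and WT replicate 3 in 1183. The median −log10 q of peaks in KO replicate 1 was 1.501 at intervals of a single KO list, 1.54 at KO-only intervals and 1.56 at those with 1 WT list. In KO replicate 2 these medians were 1.42, 1.47 and 1.47, and in KO replicate 3 they were 1.31, 1.33 and 1.34. The median −log10 q of the WT peaks that placed an interval just outside was 1.58, 1.56 and 1.42 in WT replicates 1, 2 and 3. The median width was 449 bp for intervals of a single KO list and 1684 bp for those with 1 WT list, against 996 bp for KO-only intervals.

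The position of KO-only intervals relative to genes was near that of all intervals. By the position of the centre, 254 (13.8%) were within 2 kb of a TSS, 957 (51.9%) elsewhere in a gene and 633 (34.3%) between genes. Of all intervals, 16.8% were promoter/TSS, 50.3% intragenic and 32.9% intergenic. The promoter/TSS share was 16.0% for those bound in both genotypes and 19.3% for WT-only intervals. Intergenic positions held 40.8% of the intervals bound in both genotypes and 30.3% of WT-only intervals. The centre was in an exon in 74 KO-only intervals (4.013%) and in 5.99% of all intervals. A CpG island was overlapped by 7 KO-only intervals (0.38%), beside 2.06% of all, 6.03% of those bound in both genotypes and 2.54% of WT-only intervals. This share rests on few intervals, since it was 0.0%, 0.10% and 0.95% without KO replicates 1, 2 and 3, 1.32% at −log10 q of at least 2 and 2.27% in all 3 KO lists, where it was no longer below that of all intervals. The sets differ in width, and the part of width in these shares was not tested. The median distance to the nearest TSS was 11129 bp for KO-only intervals and 9261 bp for all intervals.

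**Figure D4:**
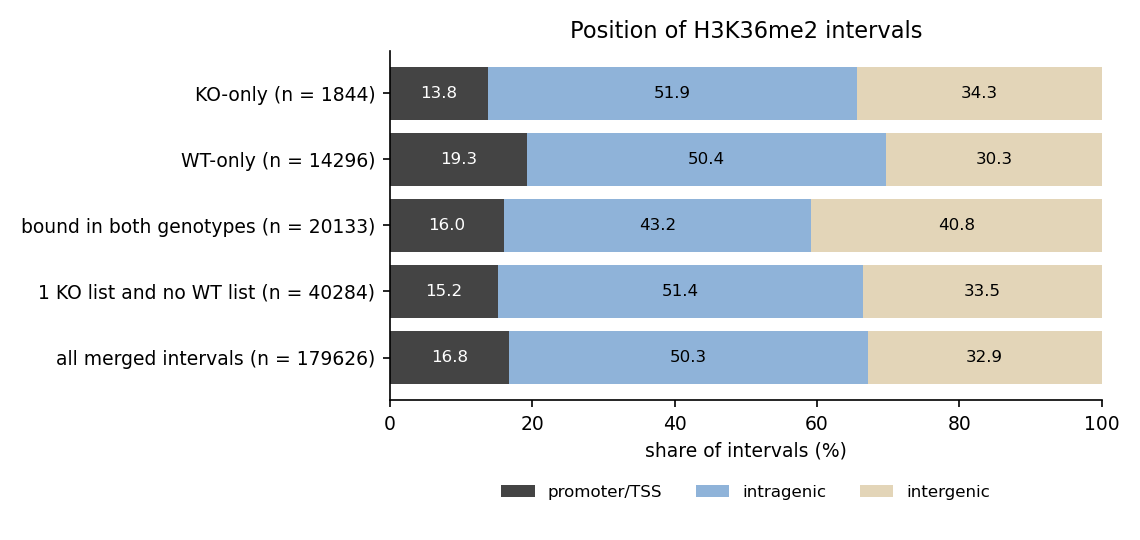
Percent of H3K36me2 intervals (horizontal axis) that were promoter/TSS (centre within 2 kb of a TSS), intragenic or intergenic, for 5 sets of intervals (vertical axis, with the number in each). KO-only intervals had 13.8%, 51.9% and 34.3% in these classes, and all merged intervals 16.8%, 50.3% and 32.9%.

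KO-only intervals had a lower GC content than most H3K36me2 intervals, close to the 41.7% of the whole genome and to that of intervals with at least 2 KO lists and 1 WT list. Their median was 41.6%, beside 42.2% for the latter, against 44.3% for all intervals, 44.5% for WT-only intervals and 43.8% for intervals bound in both genotypes. They had a median of 6.48 CpG per kb, compared with 6.90 for intervals with 1 WT list and 8.31 for all intervals. GC content also differed between the lists. The median over the intervals of a list was 45.0%, 42.2% and 43.0% in KO replicates 1, 2 and 3, and 44.8%, 44.1% and 44.4% in the WT replicates. Among KO-only intervals it was 38.8% for the combination of replicates 2 and 3, 41.3% for 1 and 2, and 42.8% for 1 and 3. The part of the lists in the low GC content of KO-only intervals was not tested. Soft-masked repeats took up 29.0% of the bases of KO-only intervals and 28.0% of those of all intervals.

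KO-only intervals were spread over the genome. They lay on all autosomes, at 0.51 per Mb on chromosome 14 up to 1.07 per Mb on chromosome 13 and 1.04 per Mb on chromosome 2. The X chromosome held 8, or 0.047 per Mb, and also few intervals of any kind, 9.49 per Mb against 56.5 to 92.8 per Mb on the autosomes. Of 2738 windows of 1 Mb, 981 held a KO-only interval and 45 held 5 or more. The fullest windows, 4 of them with 8 each, were chr1:21000001-22000000 at Kcnq5, chr2:13000001-14000000 at Cubn and Vim, chr8:81000001-82000000 at Inpp4b and chr15:50000001-51000000 at Trps1. These windows also held 275, 258, 248 and 164 merged intervals. The median distance from a KO-only interval to the next was 179387 bp, and 121 (6.56%) had another within 10 kb.

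KO-only intervals touched 1004 of 55450 annotated genes, or 1.81%, and 807 of 21951 protein-coding genes, or 3.68%. Most of these protein-coding genes, 653 of 807, had a single such interval and 47 had 3 or more. WT-only intervals lay in 606 of the 807 (75.1%) as well, beside 4294 of all 21951 protein-coding genes (19.6%). The part of gene length in this was not tested. The 807 genes were long, with a median length of 114048 bp, against 26578 bp for protein-coding genes with any H3K36me2 interval. Along the gene, 234, 248, 181 and 187 of the 850 intragenic intervals in protein-coding genes fell in 4 equal stretches counted from the TSS.

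Inpp4b, which encodes a phosphatase that acts on phosphoinositides of the PI3K pathway, had the most KO-only intervals. It held 7, all centred in introns and 599 to 1843 bp wide, with folds between 2.48 and 3.19. The same gene, chr8:81342556-82127914, held 196 intervals in all, of which 47 were bound in both genotypes, 13 were WT-only and 31 had a peak in 1 KO list alone. Kcnq5, a voltage-gated potassium channel, had 6 KO-only intervals beside 14 WT-only intervals. Atp10a, a phospholipid flippase, had 5 and 11. Scaper had 5 and 8, Tbc1d5, a Rab GTPase-activating protein, had 5 and 11, and Exoc4, a subunit of the exocyst, had 5 and 21. The non-coding transcript Gm20125 had 4 and 11. Trps1, a GATA-type transcriptional repressor, was the exception among these 8 genes, with 4 KO-only intervals and 2 WT-only intervals. None of the KO-only intervals in the 8 genes overlapped a KDM2A peak, where only 6.62% of all KO-only intervals did. Every KO-only interval in the 8 genes lay within 4404 bp of a WT H3K36me2 peak.

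Among enzymes of the H3K36 pathway, 2 of 7 methyltransferase and 1 of 7 demethylase genes held a KO-only interval (28.6% and 14.3%). The share over all protein-coding genes was 3.68%. Per Mb of gene these lists had 3.49 and 1.85 KO-only intervals against 0.96, but the values rest on 2 intervals and 1 interval. WT-only intervals lay in 4 (57.1%) and 2 (28.6%) of these genes, beside 19.6% of all protein-coding genes. Of 7 H3K36 methyltransferase genes, Nsd2 and Ash1l each held one in an intron. At Nsd2 it was chr5:33830521-33830891, with folds of 2.78 and 2.98 in KO replicates 1 and 3. At Ash1l it was chr3:88960149-88960851, with folds of 2.33 and 2.67 in the same replicates. Of 7 demethylase genes, Kdm4d held one, chr9:14479119-14480121, with folds of 2.71 and 2.46 in KO replicates 1 and 3. Kdm4d belongs to the KDM4 family and is known mainly for removing methyl groups from lysine 9. Kdm2a itself held none. None of these 3 intervals had a peak in KO replicate 2.

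B cell genes were touched in a few cases. Of 23 genes of the B cell receptor and its coreceptors, 4 held KO-only intervals, where 3.68% of all protein-coding genes held one. Per Mb of gene this list had 2.77 KO-only intervals and all protein-coding genes had 0.96. Of intervals of any kind it had 171.2 per Mb, and all protein-coding genes had 101.01. Per Mb, the B cell transcription factors had 0.72 KO-only intervals and the miR-155 targets 0.95, both near or below that background. Vav3, a guanine nucleotide exchange factor, had 2 among 96 intervals, at chr3:109535574-109536382 with folds of 2.52 and 2.62 in replicates 2 and 3, and at chr3:109595492-109596450 with folds of 2.69 and 2.81 in replicates 1 and 2. Pik3cd, the catalytic subunit of PI3K delta, had 1 at chr4:149680807-149682256, with folds of 2.98 and 3.03 in replicates 1 and 3. Plcg2, a phospholipase C, had 1 at chr8:117539421-117539970, with folds of 2.85 and 2.73 in the same replicates. The remaining gene was Prkcb, a protein kinase C of the receptor pathway, at chr7:122439370-122440195 with folds of 3.01 and 2.60, again in replicates 1 and 3. Of 23 B cell transcription factors, Bach2 had 1 among 94 intervals, at chr4:32518740-32519028, and Runx1 had 1 among 54, at chr16:92806687-92807425. Of 20 miR-155 targets, only Arid2, a subunit of the PBAF chromatin remodeler, held one, at chr15:96347008-96348360 with folds of 2.44 and 2.53 in replicates 1 and 2. All of these KO-only intervals were in introns. In the same lists, 10 of 23 receptor and coreceptor genes (43.5%), 13 of 23 transcription factors (56.5%) and 6 of 20 miR-155 targets held WT-only intervals. The share over all protein-coding genes was 19.6%, so WT-only intervals were also more frequent in these lists.

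Several other gene lists held none. No KO-only interval lay in any of 21 genes of CD40 and NF-kB signalling, 12 of IL-4 signalling, 20 of hypoxia, 94 of the respiratory chain or 69 protocadherins. The first 4 of these lists are short, with 0.75, 0.32, 0.63 and 1.46 Mb of genes, so at the 0.96 KO-only intervals per Mb of all protein-coding genes a count of 0 is near the background. WT-only intervals lay in 3, 1, 1, 7 and 18 of these genes, where the share over all protein-coding genes was 19.6%. Among 268 immunoglobulin segments, 4 (1.49%) held a KO-only interval, beside 1.81% of all genes. These were Ighv8-12, Igkv16-104, Igkv19-93 and Igkv4-58, and reads of such closely related segments may be misplaced. Olfactory and vomeronasal receptor genes held one in 4 of 1466, of which 82 held an H3K36me2 interval of any kind, namely Olfr1508, Olfr427, Olfr56 and Vmn2r27. The segments and receptors, like Prkcb, were named after their values had been seen. Zfp genes, which encode zinc finger proteins, held one in 17 of 394 (4.31%), close to the 3.68% of all protein-coding genes. Genes over 200 kb long held one in 214 of 998 (21.4%), and these genes had 0.83 KO-only intervals per Mb against 0.96 per Mb of all protein-coding genes.

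Of the 6 intervals of all 3 KO lists with the highest mean fold, only that at Casp1 was at a TSS, and the promoter/TSS share of all 88 was 13.6%. The highest mean fold was at chr4:87823689-87824131, in an intron of Mllt3, a subunit of the super elongation complex. Its folds were 3.06, 2.98 and 3.13 in KO replicates 1, 2 and 3. The next lay at chr1:35858771-35859894, 20512 bp from the lincRNA 1110002O04Rik, with folds of 3.56, 2.51 and 2.84. Each fold is on the scale of its own library, so the order by mean fold is only a description. The interval at chr3:75726327-75727467 near Gm25846 had folds of 2.96, 3.26 and 2.66, and that at chr1:54376678-54378992 near Ccdc150 had folds of 3.28, 2.56 and 2.89. The Mir3961 interval, chr13:82551037-82552729, had folds of 3.03, 3.00 and 2.59 and lay 146450 bp from its nearest TSS. At Mllt3 the nearest WT peak was only 24 bp away, whereas at Mir3961 it was 1244 bp away.

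The Casp1 interval, chr9:5296581-5298235, had the highest mean fold at a TSS among those of all 3 KO lists. Casp1 encodes an inflammatory caspase that processes interleukin 1 beta. The centre of the interval lay 1109 bp from the TSS and outside the gene, the folds were 2.69, 2.69 and 3.25, and the nearest WT peak was 5171 bp away, the largest distance among the 88 intervals of all 3 lists. The interval at the pseudogene Gm2808, chr17:6527510-6530179, had folds of 2.90, 2.56 and 3.11. At the immunoglobulin kappa segment Igkv4-58, chr6:69500272-69501676, the folds were 2.98, 2.51 and 2.80, and 1243 bp lay under peaks of at least 2 KO lists. The remaining intervals of this group were at Gm33543, chr10:95844113-95845205, and at the antisense transcript 9330111N05Rik, chr13:80964467-80967030, with mean folds of 2.76 and 2.68. None of the 5 overlapped a CpG island.

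The widest intervals of all 3 KO lists measured 2564 to 2891 bp. The widest lay between genes at chr9:13936831-13939721, 7005 bp from the lincRNA Gm47557, with folds of 2.73, 2.67 and 2.54. An interval in an intron of Nfia, a transcription factor of the nuclear factor I family, at chr4:98059128-98061830 had the longest shared stretch, 1700 bp of its 2703 bp, and folds of 2.87, 2.64 and 2.85. The others were at chr13:28654655-28657415, in an intron of 2610307P16Rik, at chr10:8102522-8105230, between genes, and at Gm2808 and 9330111N05Rik.

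KDM2A peaks were rare at KO-only intervals. The KDM2A lists had not been used to choose the intervals, so this measure could be tested. KDM2A peaks overlapped 46, 27 and 37 of the 1844 intervals in WT replicates 1, 2 and 3, and 29, 10 and 33 in KO replicates 1, 2 and 3. In percent these were 2.49, 1.46 and 2.01 in WT and 1.57, 0.54 and 1.79 in KO. The genotypes overlapped, with a WT mean of 1.99% ± 0.52 and a KO mean of 1.30% ± 0.67 (SD over 3 libraries, n = 3; two-sided exact permutation test, p = 0.3, adjusted p = 0.45 over 3 measures). With KDM2A peaks counted up to 10 kb away, the shares were 25.5%, 21.8% and 23.9% in WT and 17.4%, 16.6% and 21.1% in KO. Here every KO value was below every WT value (23.7% ± 1.9 and 18.4% ± 2.4, n = 3 each; exact permutation p = 0.1, the smallest that 3 against 3 libraries can give; adjusted p = 0.3). The KO lists of KDM2A were also the shorter ones. When each list was reduced to its 15387 strongest peaks, the means within 10 kb were 17.2% in WT and 16.9% in KO, and the overlap was 1.01% in WT and 1.05% in KO.

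The share at KO-only intervals was also set against intervals bound in both genotypes in the same KDM2A list. WT libraries gave ratios of 0.103, 0.075 and 0.092, and KO libraries ratios of 0.113, 0.040 and 0.096. Its means were 0.090 ± 0.014 and 0.083 ± 0.038 (n = 3 each; exact permutation p = 0.9, adjusted p = 0.9). KO replicate 2 set the direction, since the ratio was higher in KO, by 0.014, when that library was left out.

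KO-only intervals held fewer KDM2A peaks than WT-only intervals. A KDM2A peak of any list was found at 122 KO-only intervals (6.62%), at 16.4% of WT-only intervals, at 40.6% of intervals bound in both genotypes and at 14.3% of all intervals. To compare like widths, only intervals of 718 to 1346 bp were taken, the middle range of KO-only widths. In that range, with median widths of 996 and 1050 bp, 6.94% of 922 KO-only and 14.0% of 5212 WT-only intervals had a KDM2A peak. By library the shares at KO-only intervals were 2.71%, 1.41% and 2.06% in WT and 2.06%, 0.54% and 1.84% in KO. At WT-only intervals of that width they were 7.54%, 5.35% and 6.18% in WT and 3.78%, 3.13% and 4.70% in KO. All 6 KDM2A libraries thus had a lower share at KO-only than at WT-only intervals, with a mean difference of −3.34 ± 1.15 percentage points, and of −4.28 over all widths (SD, n = 6; exact sign-flip permutation test, p = 0.031, the smallest that 6 libraries allow; adjusted p = 0.062 over 4 such comparisons, which misses 0.05). Compared with intervals of a single KO list and no WT list at that width, the shares were lower in 5 of 6 libraries, with a mean difference of −0.35 points (exact p = 0.16, adjusted p = 0.16). Compared with intervals of at least 2 KO lists and 1 WT list they were lower in 5 of 6 libraries, with a mean difference of −0.71 points (exact p = 0.094, adjusted p = 0.12). In each comparison all 6 libraries, 3 of each genotype, were scored on the same sets of intervals. The p-values thus measure agreement between the KDM2A lists. Sets were matched for width at most. Over all widths, 13.8% of KO-only and 19.3% of WT-only intervals were promoter/TSS, and 0.38% and 2.54% overlapped a CpG island. Their median CpG per kb was 6.48 and 8.83. The part of these differences in the KDM2A shares was not tested.

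**Figure D5:**
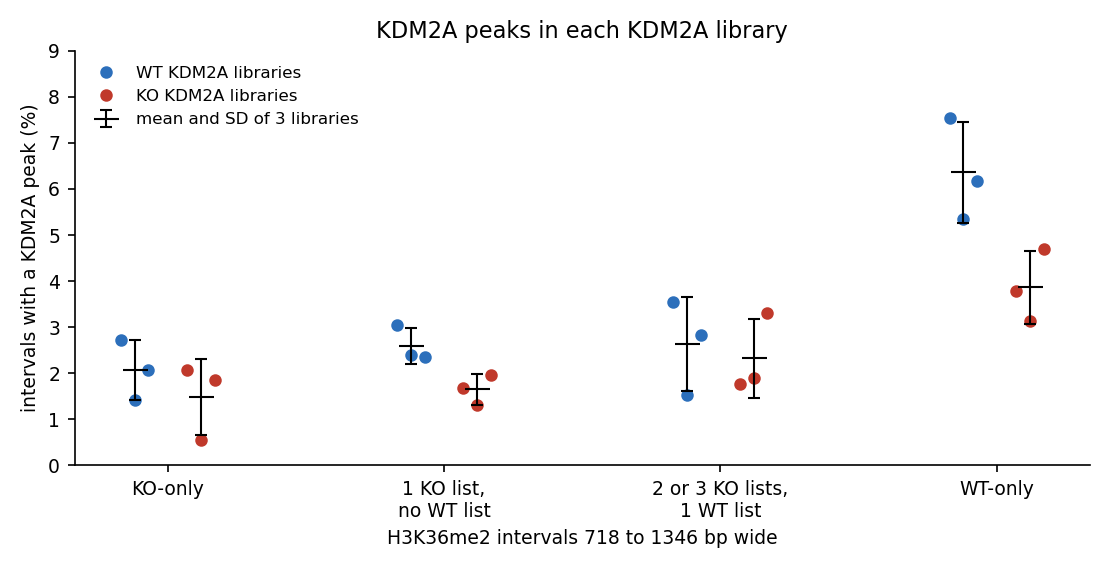
Percent of H3K36me2 intervals 718 to 1346 bp wide (vertical axis) with a KDM2A peak in each KDM2A library (points; WT blue, KO red; bars, mean and SD of 3 libraries), for 4 sets of intervals (horizontal axis). At KO-only intervals the libraries lay between 0.54% and 2.71%, and at WT-only intervals between 3.13% and 7.54%.

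Of the 122 KO-only intervals with a KDM2A peak, 86 had it in 1 of the 6 lists and 36 in 2 or more. Over all intervals with a KDM2A peak, 13161 of 25614 had it in 1 list. At KO-only intervals the peaks came from WT lists alone at 58, from KO lists alone at 41 and from both at 23. Over all intervals these numbers were 11193, 4390 and 10031. At a TSS, 45 of 254 KO-only intervals (17.7%) had a KDM2A peak, and elsewhere 77 of 1590 (4.84%). Of the 7 KO-only intervals at a CpG island, 6 had one. The same shares by position over all merged intervals are not given here, so these counts cannot be read as particular to KO-only intervals.

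A single KO-only interval had a KDM2A peak in all 6 lists. It lay at chr15:98145652-98147033 in an intron of Asb8, a SOCS box protein that serves in ubiquitin ligase complexes, 637 bp from the TSS and at a CpG island. Its KDM2A folds were 2.91, 3.55 and 2.73 in WT and 3.23, 2.91 and 3.35 in KO, so that the genotypes overlapped. Its H3K36me2 folds were 2.64, 2.43 and 2.82 in KO replicates 1, 2 and 3, with the nearest WT peak 447 bp away. The Spop interval, chr11:95412748-95413751, had KDM2A folds of 3.78, 3.21 and 3.35 in WT and 3.16 in KO replicate 3. Spop encodes a substrate adaptor of a cullin 3 ubiquitin ligase. The 4930558K02Rik interval, chr1:161968196-161969012, had KDM2A folds of 3.18 and 3.25 in WT replicates 2 and 3, and of 3.17 and 3.20 in KO replicates 1 and 3. At Jsrp1, chr10:80812741-80813879, and Slc26a2, a sulfate transporter gene, all 3 WT lists and KO replicate 1 held a KDM2A peak. At Jsrp1 the folds were 2.67, 2.77 and 2.70 in WT and 2.59 in KO, and at Slc26a2 they were 2.81, 2.67 and 2.68 in WT and 3.35 in KO. All 5 of these intervals were within 2 kb of a TSS.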

How the data were processed

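The 12 deposited peak lists of 6 H3K36me2 and 6 KDM2A libraries were used. To make them, the authors ran the nf-core/chipseq pipeline, with BWA as aligner, GRCm38 as genome and MACS2 as broad peak caller, on every library by itself. Read filters and the version of the peak caller were not given in the sources used here. The fold in the deposited lists is a ratio of enrichment over local control, on a scale of its own in each library. Each peak also has a p-value and a q-value, both deposited as −log10, and the smallest −log10 q was 1.0. The deposited score was not used. The lists hold no read counts, so depth is unknown and no counting interval can be given. A shallower library can give a shorter list.

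Intervals, members and gene lists were chosen with earlier results of these data known. Genes and TSS came from GENCODE M21, with 55450 genes. CpG islands were computed from repeat-masked GRCm38.p6, which gave 16099 islands. Sequences came from GRCm38.p6 of RefSeq. An interval's fold in a list was that of its strongest peak. Named intervals were the 6 with the highest mean fold and the 6 widest in all 3 KO lists, the 5 strongest at a TSS among those in all 3 KO lists, and the 5 with KDM2A peaks in most lists. Named genes were the 8 with most KO-only intervals, ties being ordered by number per Mb, and up to 3 of each short list, and named windows were the fullest. KDM2A shares were compared with two-sided exact permutation tests over libraries with Benjamini-Hochberg adjustment. The comparison with other intervals across the 6 KDM2A libraries and the width range were chosen after seeing the data. The merging was tested on simulated data. Analyses used Python 3.11.15, numpy 2.4.6, pandas 2.3.3 and scipy 1.17.1.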

Additional observations from a re-analysis of the deposited data

How the results depend on the processing

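The number of KO-only intervals followed the threshold and the lists used. It was 1844 as chosen, 380 with −log10 q of at least 2 in every list, 2780 with equal numbers of strongest peaks per list (37447, where WT-only intervals numbered 4709), 1087 when peaks up to 1 kb apart were merged, 657 with no WT peak within 1 kb, 88 in all 3 KO lists and 4841 with up to 1 WT list. With a −log10 q of at least 2 asked of KO peaks alone, an alternative added after seeing the data, it was 23. Leaving out a library gave 382 to 3461, the lowest without KO replicate 1 and the highest without WT replicate 3, where WT-only intervals numbered 28265 and 6729.

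The promoter/TSS share of 13.8% was 17.2% with no WT peak within 1 kb, 3.69% in a window that began 1 kb before a TSS and ended 100 bp past it, and 8.13% for TSS of protein-coding genes. The intergenic share of 34.3% was 45.8% at −log10 q of at least 2, 37.2% with equal lists, 32.0% after merging within 1 kb, 37.5% in all 3 KO lists and 43.9% with protein-coding genes only. The island share of 0.38% was 1.32% at −log10 q of at least 2, 2.27% in all 3 KO lists, 0.78% with up to 1 WT list, 3.52% with islands within 1 kb, and 0.0% to 0.95% without 1 library. The median width of 996 bp was 1774, 1297, 1285, 1654 and 1383 bp at −log10 q of at least 2, with equal lists, after merging, in all 3 KO lists and with up to 1 WT list, 1101 bp for q of at most 0.05, and 923 to 1123 bp without 1 library. The causes were not tested.

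The KO minus WT difference in KDM2A share turned from −0.69 to 0.036 percentage points with equal KDM2A lists. The ratio to intervals bound in both genotypes turned from −0.0070 to 0.0087 with equal KDM2A lists, 0.0018 with KDM2A peaks of −log10 q of at least 2 and 0.0016 with up to 1 WT list, and ranged from −0.022 to 0.014 without 1 KDM2A library. The share within 10 kb was lower in KO under every alternative run, but with equal KDM2A lists the difference was only −0.31 points. With the replicate block, pairing libraries by number, the differences were −0.69, −0.0070 and −5.37 (exact p = 0.25, 1.0 and 0.25, where 0.25 is the smallest possible). Replicate numbers go with sex in both genotypes, but deviations of same-numbered KDM2A libraries correlated at only −0.016 to 0.0011, and whether numbers mark shared cultures was not stated. The KDM2A share at KO-only minus WT-only intervals stayed below 0 under every alternative run, at −9.42 (H3K36me2 −log10 q of at least 2) to −2.60 points (KDM2A −log10 q of at least 2) over all widths and at −5.95 to −2.34, under the same alternatives, for 718 to 1346 bp.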
